A study of Mus musculus with 20 samples.

Results

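The mouse colon was compared at 2 ages in wild type animals: P30, when the pups have been weaned, and E18.5, shortly before birth. The 5 wild type pools used were adult colon 1, 2 and 3, and the 2 fetal pools with a colon profile, labelled fetal small intestine 3 and fetal colon 2, of 10 wild type pools in all. They were chosen by the rule that a fetal pool must show the distal genes Hoxd10 and Hoxd13, so the levels of regional genes are given as description and are not tested. Each pool was total RNA of whole dissected intestine or colon from 2 to 3 littermates, so muscle, nerve, blood and any attached tissue were included with the mucosa. Every array also carried, in its other dye, a pool of Spdef knockout littermates of the same age and tissue. Spdef is an Ets-domain transcription factor of secretory epithelial cells. Each pool was hybridised on 2 arrays with the dyes swapped, which gave 10 arrays for this comparison among 20. Separate pools were counted as replicates. The labels give no litter for each pool, and the p-values measure only the spread between these pools.

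The colon absorbs salt and water, houses the densest gut microbiota and protects its wall with mucus, secreted IgA and epithelial antimicrobial proteins. Its crypts form around birth and mature through weaning, when milk is replaced by solid food and the adult microbiota settles. Many imprinted growth genes, such as Igf2 and H19, are active in the fetus and are shut down in most tissues in early postnatal life.

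All values are normalised log2 intensities of the wild type channel. Values are given in the order adult colon 1, 2, 3, then fetal small intestine 3 and fetal colon 2. Differences are adult minus fetal. The floor of the scale lies near 7, so a gene near 7 was at or close to background, and its fold change is compressed.

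The labels and the data did not go together for every pool. Hoxd10, a distal Hox gene, was at 8.97 for the library labelled fetal small intestine 3 and 9.40 for fetal colon 2, and it was lower, at 7.07, 7.03 and 6.98, for the libraries labelled fetal colon 1 and fetal small intestine 1 and 2. Hoxd13, the most distal gene of its cluster, was at 10.22 in fetal small intestine 3 and at 6.99 in fetal colon 1. Hoxb13, which the rule did not use, was at 11.62 in fetal small intestine 3, 11.22 in fetal colon 2 and 6.99 in fetal colon 1, and at 10.58, 12.93 and 12.79 in adult colon 1, 2 and 3. Apoa4, an apolipoprotein of small intestinal enterocytes, was at 9.61 and 9.23 in fetal small intestine 3 and fetal colon 2 and at 16.90 in fetal colon 1. Over all genes, the profile of fetal small intestine 3 correlated at 0.988 with fetal colon 2 and at 0.937 with fetal small intestine 1, while fetal colon 1 correlated at 0.993 with fetal small intestine 1. Fetal small intestine 3 and fetal colon 1 lay on 1 slide. The titles of fetal colon 1 and 2 also carry the word adult, while their source and stage labels say fetal.

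**Figure D1:**
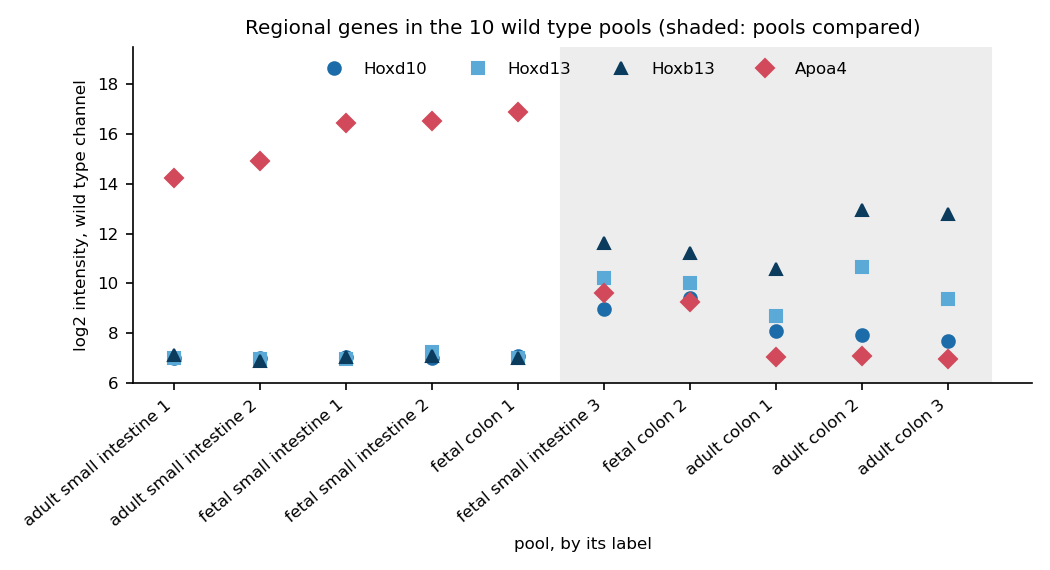
Log2 intensity (y axis) of Hoxd10, Hoxd13, Hoxb13 and Apoa4 in each of the 10 wild type pools (x axis, named by label), 1 point per gene and pool. The 5 shaded pools are those compared; all 5 lie above the unshaded pools for Hoxb13, and Apoa4 is at 9.61 or less in them and at 14.22 or more in the others.

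One array stood apart. The Cy3 array of adult colon 1 had 40.3% of its probes well above background in the wild type channel, and 25.8% in the second of 3 equal blocks of rows, against 59.9% to 69.2% on the other 9 arrays. It correlated at 0.736 with its own dye swap, where the other 4 pools gave 0.993 to 0.998. The comparison below includes it. Without it, 3544 genes were called higher and 4435 lower in the adult, in place of 1492 and 1584. Of the genes called with it, 3063 remained called in the same direction, 13 were lost and 37 moved by more than 1.5 times.

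**Figure D2:**
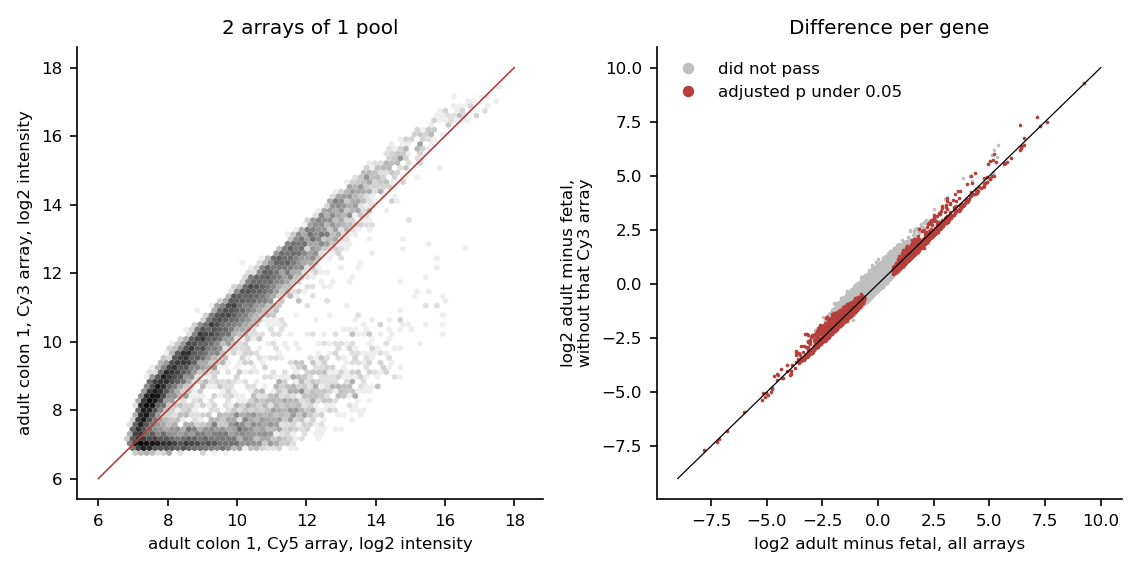
Left: log2 intensity of each gene tested on the Cy3 array of adult colon 1 (y axis) against the Cy5 array of the same pool (x axis), as density of genes; the line marks equality and a second band of genes lies far below it. Right: the adult minus fetal log2 difference of each gene without that Cy3 array (y axis) against the difference with all arrays (x axis); red genes had an adjusted p under 0.05 with all arrays, and none of them changed sign.

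Adult and fetal colon differed widely. Of 16670 genes tested with limma, 1492 were higher in the adult (8.95%) and 1584 lower (9.5%) at a Benjamini-Hochberg adjusted p under 0.05. The adult pools lay wholly above the fetal pools in 25.8% of genes and wholly below them in 30.2%. The median difference over all genes was -0.055, with 7687 differences positive and 8983 negative. The counts of each list below are to be read against these shares of all genes. Without the dim array the counts over all genes are 3544 and 4435 of 16670. Median centring in place of Aquantile scaling between arrays shifted that median to 0.21 and the split of calls to 1144 higher and 319 lower. Counts of calls under that scaling are given beside lists whose count of rises or falls it changed by more than 1.5 times. Adult colon 3 and fetal colon 2 lay on 1 slide, and all 1492 and all 1584 called genes kept their sign between these 2 pools. Both pools were part of the fit that made the calls, so this agreement was largely fixed in advance. When any 1 pool was left out, 157 of the higher and 100 of the lower calls held in every such fit. Such calls are named below as held. The total called fell to 284 without fetal small intestine 3, 438 without fetal colon 2 and 1291 without adult colon 3, and rose to 6417 without adult colon 1. With 1 fetal pool left, the test assumes that it varies like the adult pools. With the fetal pools taken as labelled, fetal colon 1 and 2, 530 genes passed.

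Car4 and Retnlb marked the adult colon. Car4, a carbonic anhydrase of the colonocyte surface, was at 13.62, 13.29 and 13.64 in the adult pools and at 7.08 and 7.21 in the fetal pools. The stages did not overlap, and in the fetal pools Car4 was well above background on 2 of 4 arrays. Its difference was 6.37 (SE 0.20, adjusted p = 0.000124, limma), and the call held. Retnlb, a goblet cell protein induced by bacteria, was at 13.62, 16.71 and 15.74 in the adult pools and at 9.01 and 8.92 in the fetal pools. All adult pools were above both fetal pools. Adult colon 1 was the lowest of the adults, and its Cy5 array alone gave 16.42. The difference was 6.39 (SE 0.86, adjusted p = 0.00731) with all arrays and 7.32 without the dim one. The call of Retnlb was lost without fetal small intestine 3 (adjusted p = 0.0925) and without fetal colon 2 (adjusted p = 0.0708), with its sign kept.

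Igf2 and H19 were far higher in the fetal than in the adult colon. Igf2, a fetal growth factor expressed from the paternal allele, was at 8.05, 7.92 and 7.93 in the adult pools and at 14.56 and 14.97 in the fetal pools. H19, the maternally expressed noncoding RNA beside it, was at 7.13, 7.53 and 7.37 and at 15.22 and 15.07. Both genes sat close to the floor in every adult pool and were bright in both fetal pools. The difference of Igf2 was -6.80 (SE 0.20, adjusted p = 0.000105), or 111-fold higher in the fetal colon. That of H19, which was well above background on 5 of 6 adult arrays, was -7.80 (SE 0.20, adjusted p = 8.4e-05), or 224-fold. Both calls held. Within the shared slide the differences were -7.04 for Igf2 and -7.70 for H19. With fetal colon 1 in place of fetal small intestine 3, they were -7.29 and -8.68. Fetal colon 1 had a small intestinal profile, so the signal of both genes was not particular to the fetal colon.

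**Figure D3:**
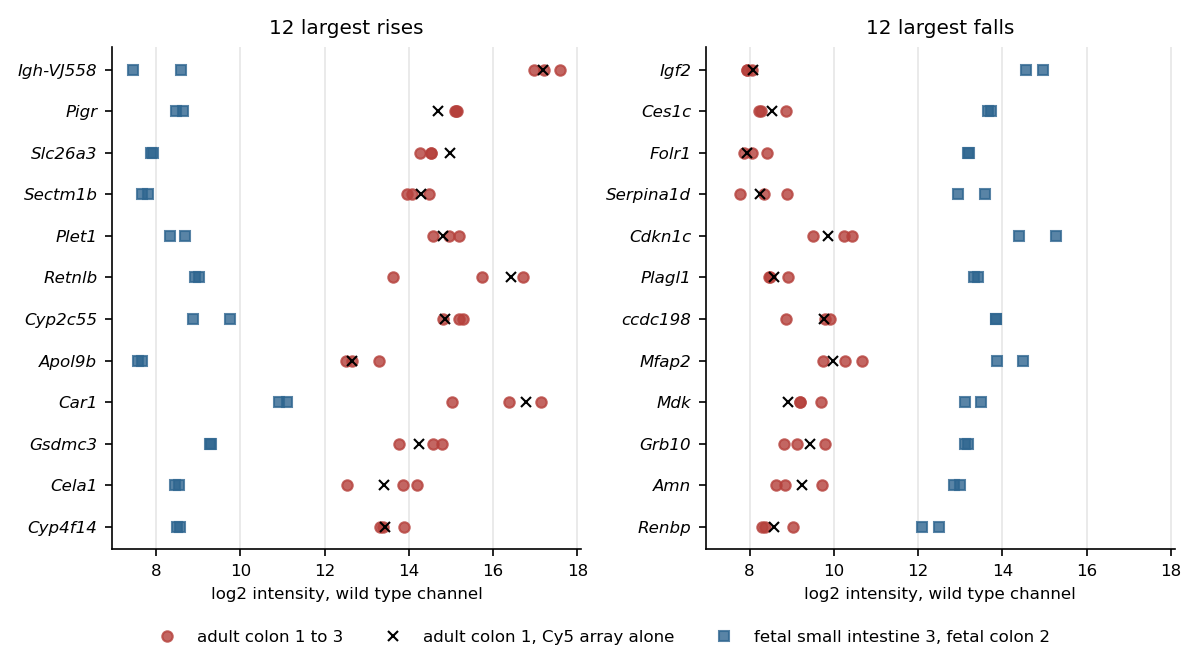
Log2 intensity (x axis) of the 12 genes with the largest rise and the 12 with the largest fall among genes measured on all arrays of both stages (y axis); red circles are the 3 adult pools, blue squares the 2 fetal pools, and crosses the Cy5 array of adult colon 1 alone. The genes were chosen among called genes without overlap between the stages, so adult and fetal pools are apart for each by choice. Retnlb and Car1 show adult colon 1 below its own Cy5 array.

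Most transport and surface genes of mature colonocytes were higher in the adult. Of 57 list members tested, 34 rose and 2 fell (47 and 2 without the dim array, 31 and none under median centring), and their median difference was 1.42. Slc26a3, the chloride and bicarbonate exchanger of the apical membrane, was at 14.27, 14.52 and 14.52 in the adult pools and at 7.88 and 7.93 in the fetal pools. It was near the floor in both fetal pools and bright in each adult pool (difference 6.53, SE 0.18, adjusted p = 8.43e-05). Slc9a3, the sodium and hydrogen exchanger that works beside it, was at 12.44, 12.18 and 11.80 against 7.41 and 7.41 (difference 4.73, adjusted p = 0.000498). Aqp4, a water channel, rose by 4.38 (adjusted p = 0.000534). Car1, a cytosolic carbonic anhydrase, was bright at both stages and rose by 5.17 (adjusted p = 0.00474), from 11.10 and 10.92 to between 15.02 and 17.13. The 2 members that fell were Slc4a1, an anion exchanger best known from red cells (-0.90), and Cldn8, a tight junction claudin (-1.44). Of the epithelial sodium channel, the subunit Scnn1a was at 13.30, 13.20 and 12.93 in the adult pools and at 10.19 and 10.19 in the fetal pools (difference 2.95, adjusted p = 0.00111, held). Its subunit Scnn1b differed by 0.76 and did not pass (adjusted p = 0.053). Also without a pass were Mep1a (0.68) and Fxyd4 (1.03). Of the 34 rises, 16 held. Those of Slc26a3, Slc9a3 and Aqp4 were among them. Car1 was lost without fetal small intestine 3 (adjusted p = 0.0708) and without fetal colon 2 (adjusted p = 0.0557), Cldn8 without either (adjusted p = 0.171 and 0.153), and Slc4a1 without any pool but adult colon 1 (0.0557 to 0.184).

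General epithelial genes were also measured. In a list of 33, which includes Epcam, Cdh1 and Vil1, 17 rose and none fell (26 and 1 without the dim array), with a median of 0.957 against 1.42 for the colonocyte list. Cldn15, a claudin of gut epithelium, was at 11.84, 11.79 and 11.71 in the adult pools and at 9.51 and 9.39 in the fetal pools (difference 2.32, adjusted p = 0.00156), and its call held. Epcam differed by 1.56 (adjusted p = 0.0333) and Cdh1 by 1.77 (adjusted p = 0.0223), and these 2 calls were lost without fetal small intestine 3 (adjusted p = 0.238 and 0.181), without fetal colon 2 (0.136 and 0.124) and without adult colon 3 (0.101 and 0.0676). The summed intensity of the list was 745 to 966 in the adult pools and 454 and 513 in the fetal pools, in units of 1000. In such whole-tissue RNA, fewer cells of a type and less RNA per cell cannot be told apart.

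Several of the 12 largest rises were of genes outside the colonocyte list. Pigr, the receptor that carries IgA across the epithelium, was at 15.13, 15.14 and 15.09 in the adult pools and at 8.63 and 8.47 in the fetal pools. The adult pools lay close together, far above both fetal pools (difference 6.57, SE 0.17, adjusted p = 8.4e-05). Sectm1b was at 14.48, 14.07 and 13.95 against 7.68 and 7.80, a difference of 6.43 (adjusted p = 0.00019). Plet1, a surface protein of gut epithelium, was at 15.20, 14.96 and 14.58 against 8.32 and 8.68, a difference of 6.41 (adjusted p = 0.00027). Gsdmc3, a member of the pore-forming gasdermin family, rose by 5.09 (adjusted p = 0.00111), and Apol9b by 5.19 (adjusted p = 0.000614). These 5 calls held.

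Goblet cell genes divided. Of 46 tested, 20 rose, 1 fell and 25 did not pass, with a median of 0.848. Without the dim array 32 rose, and under median centring 9 rose and none fell. Muc2, the main mucin of the colon, was at 16.51, 16.72 and 17.05 in the adult pools and at 13.65 and 13.56 in the fetal pools. It was already bright in the fetal colon, and the adult pools were clear of it (difference 3.16, SE 0.22, adjusted p = 0.00131). Zg16, a mucus lectin that binds bacteria, was at 17.75, 17.57 and 17.77 against 15.42 and 15.42 (difference 2.27, adjusted p = 0.00177). Those 2 calls were the only goblet calls to hold. Ern2, an endoplasmic reticulum stress sensor of goblet cells, rose by 1.54 (adjusted p = 0.00484), and Spdef itself by 0.78 (adjusted p = 0.0321). Among the genes that did not pass were Galnt12, a mucin glycosyltransferase (0.82, adjusted p = 0.051), Ccl6, a chemokine (2.11, adjusted p = 0.076), and Itln1, a lectin (2.20, adjusted p = 0.082). The member that fell was Mptx1, a pentraxin (-0.77). Leaving out fetal small intestine 3 gave adjusted p of 0.0645 for Ern2, 0.207 for Spdef and 0.186 for Mptx1, and leaving out fetal colon 2 gave 0.0712, 0.183 and 0.226. Spdef and Mptx1 were also lost without adult colon 2 (0.0749 and 0.0737) and adult colon 3 (0.114 and 0.15).

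Antimicrobial and microbe-responsive genes rose in 21 of 38 members tested and fell in 4 (27 and 5 without the dim array, 21 and 2 under median centring), with a median of 1.58. Saa2, a serum amyloid A made by gut epithelium on contact with bacteria, was at 17.03, 17.04 and 16.95 in the adult pools and at 14.22 and 14.46 in the fetal pools. It was bright in the fetal pools already and brighter in every adult pool (difference 2.67, adjusted p = 0.00117). Saa3, its relative, rose by 2.84 (adjusted p = 0.00138). Pla2g5, a secreted phospholipase, was at 11.03, 10.78 and 10.92 against 7.20 and 7.14, and was above background on 3 of 4 fetal arrays (difference 3.75, adjusted p = 0.00043). A gene not above background on every array of both stages entered the test through 1 stage alone. That favours its direction, and fixes it where no array of the other stage passed, so its adjusted p describes the spread only. Besides genes absent from 1 stage, this covers 5145 genes above background on part of the other stage's arrays. Pla2g5, Car4, H19, Jchain and Afp are among them, with array counts given beside their values. Not above background on any fetal array were Ido1, which breaks down tryptophan, and Ubd, a ubiquitin-like protein. Ido1 was at 10.05 on average in the adult and 7.06 in the fetal pools, at least 7.94-fold higher (adjusted p = 0.00191), and Ubd averaged 9.69 in the adult pools, at least 6.43-fold higher (adjusted p = 0.00221). The 4 falls were S100a9, a neutrophil calcium-binding protein (-3.49), Ccl25, a chemokine of the small intestine (-2.70), Il33, an alarmin (-1.27), and Defb37, a defensin (-0.86). That number of falls was near the share over all genes, 9.5%. S100a8, also of this list, did not pass (adjusted p = 0.054, limma). The calls of Pigr, Saa2, Saa3, Pla2g5, Ido1, Ubd and S100a9 held. In the fit without fetal small intestine 3 the adjusted p was 0.0709 for Ccl25, 0.129 for Il33 and 0.162 for Defb37, and without fetal colon 2 it was 0.0602, 0.242 and 0.206. Il33 and Defb37 were also lost without adult colon 2 (0.0662 and 0.0682) and adult colon 3 (0.117 and 0.126).

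Plasma cell transcripts were present in the adult pools and close to the floor in the fetal pools. Of 20 B cell and plasma cell genes tested, 11 rose and 1 fell (15 and 1 without the dim array, 8 and none under median centring), with a median of 1.47. The largest difference among all called genes was that of the probe named Igh-VJ558, an immunoglobulin heavy chain variable family outside the list. It was at 16.98, 17.58 and 17.21 in the adult pools and at 8.59 and 7.46 in the fetal pools (difference 9.23, SE 0.38, adjusted p = 0.000315). Jchain, which joins IgA dimers, was at 14.29, 14.26 and 14.31 against 7.09 and 6.99 (difference 7.25, SE 0.17, adjusted p = 8.4e-05), and was above background on 1 of 4 fetal arrays. Both were high in every adult pool, and the stages were far apart. Mzb1, a chaperone of antibody-secreting cells, rose by 3.06 (adjusted p = 0.000728), and Pou2af1, a B cell coactivator, by 3.40 (adjusted p = 0.00203). Iglv1, a lambda light chain variable gene, rose by 7.13 (adjusted p = 0.0019), or 7.73 without the dim array. A probe of a variable gene can bind many relatives, so these intensities are of families. The member that fell was Cxcl13, the chemokine that attracts B cells (-1.49). Cd72, a B cell surface receptor, differed by 0.73 and did not pass (adjusted p = 0.09). The calls of Igh-VJ558, Jchain, Mzb1, Pou2af1 and Iglv1 held, and that of Cxcl13 was lost without fetal small intestine 3 (adjusted p = 0.109) and without fetal colon 2 (0.0729).

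T cell and macrophage lists moved less. Of 31 T cell and cytotoxic genes, 4 rose and none fell (8 and none without the dim array, median 0.201), among them Ptprc, the pan-leukocyte CD45 (1.39), Cd6, a T cell surface receptor (1.19), and Ccl5, a chemokine (1.28). Over all genes tested 8.95% rose, a share not far below that of the T cell list. None of the 4 calls held. Over these 3 named genes, the adjusted p ran from 0.123 for Ptprc to 0.186 for Cd6 and Ccl5 without fetal small intestine 3, from 0.078 to 0.173 without fetal colon 2 and from 0.0531 to 0.099 without adult colon 3, and Ccl5 was also lost without adult colon 2 (0.0516). Of 32 macrophage, dendritic and granulocyte genes, 7 rose and 1 fell (15 and 4 without the dim array, 7 and none under median centring, median 0.51). The fall was of Ccl24, an eosinophil chemokine (-1.06), and was lost without adult colon 3 (adjusted p = 0.0896), fetal colon 2 (0.114) and fetal small intestine 3 (0.166). Ccl8, a monocyte chemokine, was not above background on any fetal array, averaged 10.51 in the adult, and was at least 11.4-fold higher (adjusted p = 0.00152), and held. Cd163, a macrophage scavenger receptor, differed by 0.81 and did not pass (adjusted p = 0.062). The mast cell list had 1 call of 10, a fall, which is near the share of falls over all genes, 9.5%. It was the protease Cpa3, which fell by 0.72 (adjusted p = 0.039, limma). The call was lost when any pool but adult colon 1 was left out, and under median centring.

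Most antigen presentation and interferon-stimulated genes tested rose. Of 24 antigen presentation genes, 16 rose and none fell (21 and 1 without the dim array, median 1.69). Cd74, the invariant chain of MHC class II, was at 12.74, 12.25 and 12.84 in the adult pools and at 9.02 and 9.26 in the fetal pools (difference 3.47, adjusted p = 0.00131). H2-Ab1, a class II beta chain, was at 13.01, 12.39 and 12.84 against 9.72 and 9.64 (difference 3.07, adjusted p = 0.0018). H2-Aa, the alpha chain that pairs with it, rose by 2.21 and Ctss, the protease that trims the invariant chain, by 2.78 (adjusted p = 0.00177). All 4 calls held, and both class II chains were clear of the fetal pools in each adult pool. Psme2, an activator subunit of the proteasome, differed by 0.52 and did not pass (adjusted p = 0.093).

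Of 36 interferon-stimulated genes, 28 rose, none fell and 8 did not pass (all 36 rose without the dim array), and all 36 had a positive difference (median 2.06, the highest of the 20 main lists). Isg15, a ubiquitin-like protein, was at 13.41, 12.80 and 12.84 in the adult pools and at 8.56 and 9.40 in the fetal pools (difference 4.04, SE 0.33, adjusted p = 0.00196). Its probe is annotated in the files to chromosome 17, while RefSeq places the gene on chromosome 4. Oasl2, an antiviral protein of the oligoadenylate synthetase family, was at 13.55, 13.03 and 13.15 against 9.27 in fetal colon 2 and less in fetal small intestine 3 (difference 4.61, SE 0.40, adjusted p = 0.00227). Fetal colon 2 was above fetal small intestine 3 for both genes, and both were far below the adult pools. Irf1, a transcription factor of the pathway, was bright in all pools, at 14.70, 14.60 and 14.69 against 12.06 and 12.16 (difference 2.55, adjusted p = 0.00114). Oas2 rose by 2.88 (adjusted p = 0.00206). These 4 calls held, among 6 of the 28. Rsad2 (2.25, adjusted p = 0.058) and Gbp3 (1.92, adjusted p = 0.079) did not pass with the dim array and passed without it, with differences of 2.93 and 2.55.

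Promoter sequences of 3 genes that rose are shown because their lists share a known element. The 3 were taken from called members with a match, so a match in each was fixed in advance. The sequences are the 250 bases before the RefSeq start on GRCm38.p6, read on the gene's strand. In the first 2, capitals mark the interferon-stimulated response element, searched as GAAA, any 2 bases and GAAA on both strands. Ifit3, an interferon-induced RNA-binding protein (rise of 2.85, adjusted p = 0.00241, lost without fetal small intestine 3 at 0.0516), lies at chr19:34583279-34583528 on the plus strand. Oas1a, an oligoadenylate synthetase (rise of 2.34, adjusted p = 0.00261), lies at chr5:120907526-120907775 on the minus strand. In H2-Aa, at chr17:34287824-34288073 on the minus strand, capitals mark the Y box of class II promoters, searched as CTGATTGG on both strands, which holds the reversed CCAAT box ATTGG.
Ifit3: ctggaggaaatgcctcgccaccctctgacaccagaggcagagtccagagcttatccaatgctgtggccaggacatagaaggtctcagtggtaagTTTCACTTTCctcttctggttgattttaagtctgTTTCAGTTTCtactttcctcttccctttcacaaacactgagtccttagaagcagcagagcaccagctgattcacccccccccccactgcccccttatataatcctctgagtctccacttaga
Oas1a: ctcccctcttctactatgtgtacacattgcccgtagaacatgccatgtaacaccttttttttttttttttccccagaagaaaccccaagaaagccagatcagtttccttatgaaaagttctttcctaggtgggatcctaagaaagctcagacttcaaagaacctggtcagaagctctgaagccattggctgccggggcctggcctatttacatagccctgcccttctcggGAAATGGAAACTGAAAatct
H2-Aa: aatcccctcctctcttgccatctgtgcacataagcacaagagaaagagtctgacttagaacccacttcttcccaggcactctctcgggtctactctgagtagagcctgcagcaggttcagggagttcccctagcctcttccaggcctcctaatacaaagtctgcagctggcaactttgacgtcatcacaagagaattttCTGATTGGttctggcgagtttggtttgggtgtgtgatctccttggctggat
Ifit3 had 2 matches, which start 156 and 122 bases before its start site, and Oas1a had 2 that overlap, 20 and 14 bases before it. The element was found before 14 of the 24 interferon-stimulated genes with a RefSeq promoter (58.3%). It was found before 3.21% of all genes tested that had a promoter, and before 3.46% of all genes in the promoter table. The Y box was found before 7 of 20 antigen presentation genes (35.0%), 5.89% of all genes tested and 4.43% of all genes in the promoter table. A match is a description of these letters and was not tested for function.

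Enzymes that handle drugs, steroids and plant compounds formed the other large group of rises. Of 75 tested, 30 rose and 7 fell (46 and 7 without the dim array, 24 and 2 under median centring), with a median of 0.806. The falls were near the share over all genes, 9.5%. Cyp2c55, a cytochrome P450 abundant in mouse colon, was at 15.28, 15.20 and 14.80 in the adult pools and at 8.88 and 9.75 in the fetal pools (difference 5.78, SE 0.32, adjusted p = 0.000656). Cyp4f14, a fatty acid hydroxylase, was at 13.88, 13.31 and 13.39 against 8.56 and 8.49 (adjusted p = 0.0004). Sult1a1, a sulfotransferase of phenols, was at 14.05, 13.99 and 13.90 against 9.48 and 9.42 (difference 4.53, adjusted p = 0.000237). For all of these genes the adult pools lay close together and well above the fetal ones. The carboxylesterases Ces1f, Ces2c and Ces2b rose by 4.74, 4.48 and 4.43 (adjusted p = 0.0003, 0.000315 and 0.000315). Outside the list, Ces1g, a further carboxylesterase, was not above background on any fetal array, averaged 10.35 in the adult against 6.95, and was at least 10.5-fold higher (adjusted p = 0.00114). Ces1c, of the same family and also outside the list, was at 8.87, 8.27 and 8.23 in the adult pools and at 13.73 and 13.65 in the fetal pools, a fall of 5.23 on the log2 scale (adjusted p = 0.000462). Near-identical family members may share probe signal. The calls of these 8 genes held. Akr1c14, a steroid dehydrogenase, did not pass (2.23, adjusted p = 0.054) and did without the dim array, at 2.82.

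Among imprinted growth genes, some of the largest falls were seen beside many genes that did not pass. Of 33 tested, 15 fell, none rose and 18 did not pass (21 fell and 2 rose without the dim array, 10 fell under median centring), with a median of -0.852. Mest was at 7.90, 8.18 and 8.28 in the adult pools and at 13.97 and 14.31 in the fetal pools (difference -6.02, SE 0.21, adjusted p = 0.000203), and Plagl1, a zinc finger regulator of this gene network, was at 8.91, 8.48 and 8.47 against 13.41 and 13.33 (difference -4.75, adjusted p = 0.000345). Cdkn1c, an inhibitor of the cell cycle, was at 10.42 and 10.23 in adult colon 1 and 3, lower in adult colon 2, and at 14.40 and 15.28 in the fetal pools (difference -4.79, adjusted p = 0.00191). Each of these was brighter in both fetal pools than in any adult pool. Grb10, an adaptor that restrains insulin signalling, fell by 3.89 on the log2 scale (adjusted p = 0.00191). These 4 calls held, as did 8 of the 15 in all. Among those that did not pass were Dio3, which inactivates thyroid hormone (-0.85, adjusted p = 0.122), and Slc22a18, a transporter of the same imprinted domain as Cdkn1c. Slc22a18 was at 11.95, 14.13 and 13.67 against 11.56 and 11.05, a difference in the opposite direction (1.94, adjusted p = 0.093), and it passed without the dim array at 2.64.

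Fetal growth and oncofetal genes fell in 13 of 30 members tested and rose in 2 (median -0.865). Without the dim array 20 fell and 4 rose, and under median centring 6 fell and 2 rose. Afp, the fetal counterpart of albumin, was at 7.26, 7.12 and 7.12 in the adult pools and at 14.48 and 14.19 in the fetal pools (difference -7.17, SE 0.18, adjusted p = 8.4e-05). It was above background on 4 of 6 adult arrays but near the floor on all. Igf2bp3, an RNA-binding protein of Igf2 mRNA, was at 7.37, 7.13 and 7.03 against 10.71 and 10.71 (difference -3.54, adjusted p = 0.000612). Mdk, the heparin-binding growth factor midkine, was at 9.70, 9.21 and 9.19 against 13.11 and 13.48 (difference -3.93, adjusted p = 0.00102). Sox11, a transcription factor of progenitors and neurons, was not above background on any adult array and averaged 9.71 in the fetal pools against 7.01, at least 6.41-fold higher there (adjusted p = 0.00263). These 4 calls held. The 2 genes that rose were Ly6a, a surface antigen that interferon also induces (3.70), and Clu, a secreted chaperone (2.14), and both calls were lost without fetal small intestine 3 (adjusted p = 0.0826 and 0.145) and without fetal colon 2 (0.0777 and 0.131), that of Clu also without adult colon 3 (0.0556).

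The 2 fetal pools with a colon profile carried signal of genes known from the small intestine. In a list of 39 absorptive genes, 18 fell into the adult, 5 rose and 16 did not pass (23 and 7 without the dim array, 12 and 4 under median centring, median -0.892). Apoa1, an apolipoprotein of lipid export, was at 11.91 and 11.78 in the fetal pools and not above background on any adult array, at 7.19, 7.11 and 6.98, and was at least 27.0-fold higher in the fetal colon (adjusted p = 0.000237). Mogat2, which rebuilds absorbed fat, was at 10.06, 9.67 and 9.43 against 13.17 and 13.42 (difference -3.57, adjusted p = 0.00127). Folr1, a folate receptor outside the list, was at 8.41, 8.06 and 7.86 against 13.20 and 13.19 (difference -5.09, adjusted p = 0.000343). Amn, the partner of cubilin in vitamin B12 uptake, was at 8.84, 9.71 and 8.63 against 12.99 and 12.86 (difference -3.87, adjusted p = 0.00254). The fetal pools lay close together for these genes and above every adult pool. With fetal colon 1, of small intestinal profile, in place of fetal small intestine 3, the differences were larger. They were -7.13 for Apoa1, -5.20 for Mogat2, -6.16 for Folr1 and -4.89 for Amn, so these genes were not particular to the fetal colon. Smlr1 and Slc34a3, a phosphate transporter, both outside the list, were also below background on all adult arrays, and were at least 16.2-fold and 8.29-fold higher in the fetal colon (adjusted p = 0.000315 and 0.000741). Apoa4, whose levels are given above among the regional genes, is 1 of the 18, and its level describes the choice of pools. The 5 members that rose were the sugar transporters Slc5a1 (1.72) and Slc2a5 (1.43), the brush border protein Vil1 (1.31), the fatty acid binding protein Fabp2 (1.15) and the brush border sugar enzyme Mgam (0.97). The calls of Apoa1, Mogat2, Folr1, Smlr1 and Slc34a3 held. That of Amn was lost without fetal small intestine 3 (adjusted p = 0.0545). The 5 rises were lost without fetal small intestine 3 (0.0551 for Slc5a1 to 0.223 for Fabp2) and without fetal colon 2 (0.0548 to 0.172), those of Fabp2 and Mgam also without adult colon 3 (0.112 and 0.0974), and those of Fabp2 and Slc2a5 without adult colon 2 (0.0645 and 0.0577).

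**Figure D4:**
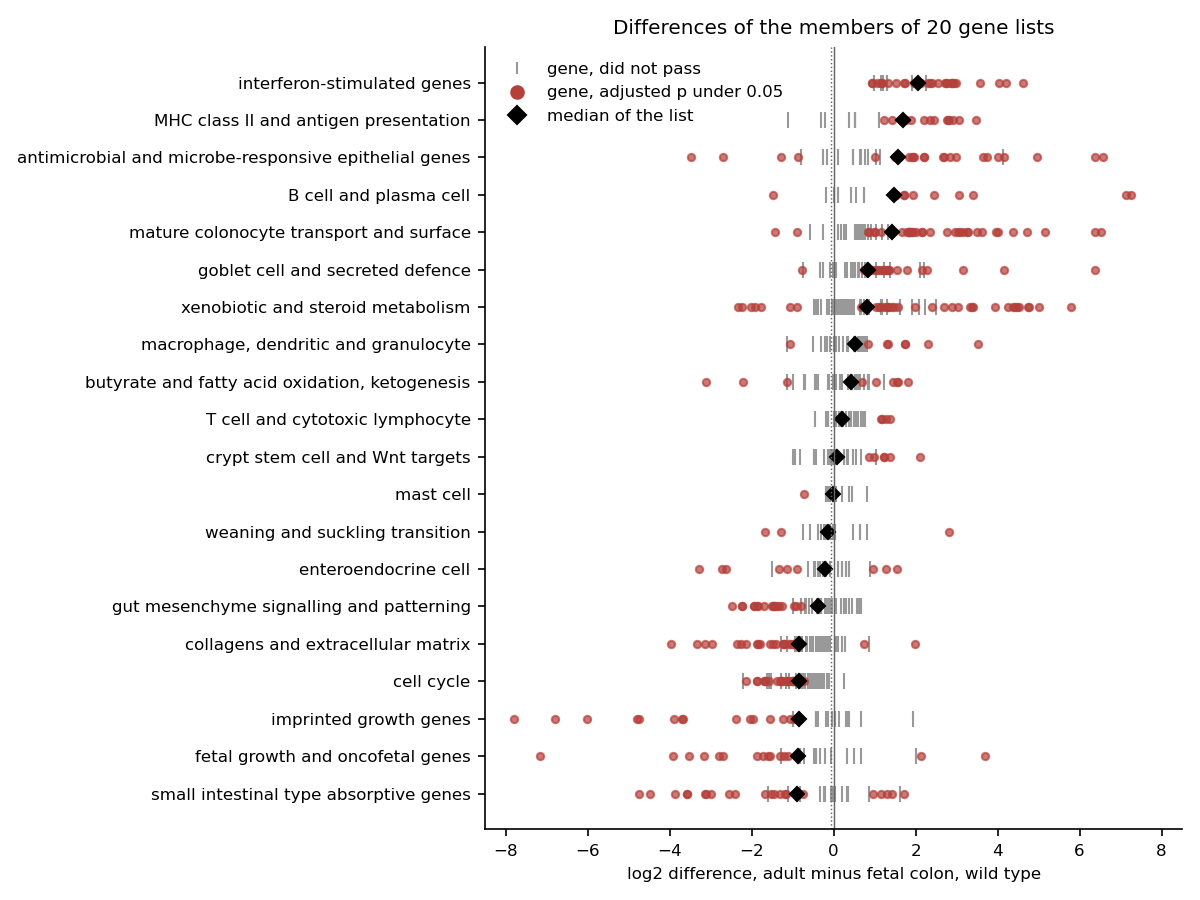
Adult minus fetal log2 difference (x axis) of each tested member of the 20 main gene lists (y axis, ordered by median); red points had an adjusted p under 0.05, grey ticks did not, and black diamonds are list medians. The solid line is 0 and the dotted line is the median of all genes, -0.055; interferon-stimulated genes have the highest median, 2.06, and small intestinal type absorptive genes the lowest, -0.892.

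Cell cycle genes differed by modest amounts, with negative signs. Of 65 cell cycle genes, 25 fell and none rose, and 64 of 65 differences were negative (median -0.844). Without the dim array 55 fell, and under median centring 1 did. Cdk4, the kinase of G1 entry, was at 9.43, 9.56 and 9.19 in the adult pools and at 11.67 and 11.40 in the fetal pools (difference -2.14, SE 0.21, adjusted p = 0.00292). Pcna, the sliding clamp of DNA replication, was at 12.38, 12.88 and 12.65 against 14.36 and 14.24 (difference -1.67, adjusted p = 0.00643). E2f1, the S phase transcription factor, differed by -1.69 (adjusted p = 0.00519). For each of the 3 the stages did not overlap. Mcm2, a helicase subunit, differed by -1.10 and did not pass (adjusted p = 0.053), nor did Uhrf1, a maintenance factor of DNA methylation (-1.58, adjusted p = 0.055). None of the 25 calls held. Without fetal small intestine 3 the adjusted p was 0.0549 for Cdk4, 0.0849 for Pcna and 0.0683 for E2f1, and without fetal colon 2 it was 0.0696 for Pcna and 0.0711 for E2f1. Under median centring the median of this list was -0.444.

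Cell cycle promoters are known for CCAAT boxes, and that of Pcna is shown with its match in capitals, CCAAT searched on both strands. Pcna was likewise taken from called members with a match. It lies at chr2:132253181-132253430 on the minus strand of GRCm38.p6 and is again 250 bases from RefSeq.
Pcna: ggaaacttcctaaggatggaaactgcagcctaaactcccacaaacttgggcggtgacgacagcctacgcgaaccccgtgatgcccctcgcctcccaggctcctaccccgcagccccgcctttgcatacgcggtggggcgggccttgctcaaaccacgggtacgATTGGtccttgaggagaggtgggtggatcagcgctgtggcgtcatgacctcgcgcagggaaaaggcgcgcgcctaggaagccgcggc
The match begins 87 bases before the start site. A CCAAT box was found before 35 of 50 cell cycle genes with a promoter and 37.5% of all genes in the promoter table.

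Matrix and mesenchyme lists held more falls than rises, and most of their members did not pass. Of 61 collagen and extracellular matrix genes, 23 fell and 2 rose (median -0.835). Without the dim array 37 fell and 4 rose, and under median centring 5 fell and 1 rose. Mfap2, a microfibril glycoprotein, was at 10.67, 9.73 and 10.27 in the adult pools and at 13.88 and 14.49 in the fetal pools (difference -3.96, adjusted p = 0.00224). Fbn2, the fibrillin of developing tissue, was at 7.35, 7.57 and 7.62 against 10.69 and 10.62 (difference -3.14, adjusted p = 0.000746), and Col26a1 differed by -3.34 (adjusted p = 0.00146). In all 3 the fetal pools were clear of the adult pools, and these were the 3 calls of the list to hold. Fbn1, the fibrillin of adult tissue, differed by -0.83 and did not pass (adjusted p = 0.058). The 2 rises were Col5a3, a fibrillar collagen (1.98), and Tnc, tenascin C (0.74), both lost without fetal small intestine 3 (adjusted p = 0.104 and 0.194) and fetal colon 2 (0.0771 and 0.24), and Tnc also without adult colon 2 and 3 (0.0893 and 0.16). Of 56 genes of gut mesenchyme signalling, 18 fell and none rose (median -0.372). Without the dim array 32 fell and 6 rose, and under median centring 5 fell. Bmp4, a signal of the villus and crypt mesenchyme, was at 8.84, 9.02 and 9.05 against 10.80 and 10.89 (difference -1.88, adjusted p = 0.00275), and Gli3, a hedgehog effector, was at 8.37, 7.83 and 8.14 against 10.07 and 10.03 (difference -1.94, adjusted p = 0.00444). Both calls were lost without fetal small intestine 3 (adjusted p = 0.0509 and 0.0685), and that of Gli3 also without fetal colon 2 (0.0591).

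Most nerve genes tested fell. Of 32 genes of enteric neurons and glia, 21 fell and none rose, with a median of -1.33. Under median centring 13 fell. Elavl4, a neuronal RNA-binding protein, was at 9.45, 8.97 and 9.25 in the adult pools and at 12.07 and 12.04 in the fetal pools (difference -2.83, adjusted p = 0.00156). Tubb3, neuronal tubulin, was at 8.42, 8.46 and 8.61 against 11.14 and 11.44 (difference -2.79, adjusted p = 0.00124). Both calls held. L1cam, a neural adhesion molecule, differed by 0.35 and did not pass (adjusted p = 0.22). Of 24 smooth muscle genes, 1 rose and 1 fell (3 and 7 without the dim array, none under median centring), and the list's summed intensity was 447 to 556 in the adult and 552 and 590 in the fetal pools, in units of 1000. Its median of -0.321 turned to 0.276 under median centring.

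Endocrine, stem cell and metabolic lists showed mixed directions. Of 28 enteroendocrine genes, 6 fell and 3 rose (10 and 4 without the dim array, 1 and 2 under median centring). The rises were near the share over all genes, 8.95%. The median of -0.20 turned to 0.16 under median centring. Ghrl, the hormone ghrelin, was at 8.01, 7.39 and 7.51 in the adult pools and at 10.04 and 10.65 in the fetal pools (difference -2.71, adjusted p = 0.00376) and held. Cck, cholecystokinin, differed by -2.62 (adjusted p = 0.00876). The genes that rose were Chga, a granule protein (1.29), Tph1, the enzyme of serotonin synthesis (1.56), and Pcsk1, a prohormone convertase (0.95). These 4 calls were lost without fetal small intestine 3 (adjusted p = 0.0999 for Cck, 0.174 for Chga, 0.179 for Tph1 and 0.119 for Pcsk1) and without fetal colon 2 (0.0511, 0.084, 0.16 and 0.219). Chga and Pcsk1 were also lost without adult colon 3 (0.0516 and 0.0805), and Pcsk1 without adult colon 2 (0.0672).

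Of 27 crypt stem cell and Wnt target genes, 6 rose and none fell (11 and 5 without the dim array, 4 and none under median centring, median 0.0814). Myb, a transcription factor of crypt progenitors, was at 11.89, 11.47 and 11.84 in the adult pools and at 9.79 and 9.48 in the fetal pools (difference 2.10, adjusted p = 0.00366), and was lost without fetal small intestine 3 (adjusted p = 0.052) and without fetal colon 2 (0.0533). Axin2, a Wnt target, differed by 0.67 and did not pass (adjusted p = 0.137). Among 39 genes of butyrate and fatty acid oxidation, 6 rose and 3 fell (17 and 3 without the dim array, 7 and 1 under median centring, median 0.419). The falls were near the share over all genes, 9.5%. Fabp1, the fatty acid binding protein of liver and small intestine, was at 8.56, 8.24 and 7.55 against 10.76 and 11.72 (difference -3.12, adjusted p = 0.00693). Its call was lost without fetal small intestine 3 (adjusted p = 0.052) and without fetal colon 2 (0.0621). Of 16 genes known to change at weaning, Bcl6, a transcriptional repressor, rose by 2.82 (adjusted p = 0.00275), and Lct, the lactase of suckling, and Ass1, an arginine synthesis enzyme, fell by 1.67 and 1.29 on the log2 scale (adjusted p = 0.00866 and 0.014). The 1 rise and 2 falls were near the shares over all genes, 8.95% and 9.5%. Under median centring 1 rose and 1 fell. Left without fetal small intestine 3, the adjusted p of these 3 was 0.0549, 0.0715 and 0.13. Lct and Ass1 were also lost without fetal colon 2 (0.097 and 0.114), and Ass1 without adult colon 3 (0.061).

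Markers of other tissues differed between pools. Of 15 pancreatic genes, the median level was 13.9 in adult colon 1 and 14.7 in adult colon 3, against 7.67 in adult colon 2 and 7.48 and 7.65 in the fetal pools. Cpa1, a pancreatic protease, was at 15.40 and 15.95 in adult colon 1 and 3 and at 7.19 in adult colon 2, and did not pass (adjusted p = 0.226). The 3 genes of this list that passed were Zg16, which goblet cells also make, Cela1, an elastase at 12.53 in adult colon 2, and Clps, a lipase cofactor (4.75). Cela1 lost its call without fetal small intestine 3 (adjusted p = 0.0585), and Clps without any pool but adult colon 2 (0.0586 to 0.221). In adult colon 2, Slc26a3, Pigr and Jchain were at 14.52, 15.14 and 14.26. Of 14 adipocyte genes 7 rose, led by Cfd, the adipocyte protease adipsin, at 11.99, 12.53 and 12.81 against 7.40 and 6.94 (difference 5.27, adjusted p = 0.000741, held). Adipoq, a defining marker, was below the filter. The sum over the adipocyte list was 57.0 to 57.8 in the adult and 48.9 and 58.0 in the fetal pools, in units of 1000. In the liver-type list 7 of 22 fell (4 under median centring), among them Afp and Fgb, a fibrinogen chain, and 8 of 22 differences were positive. The list's summed intensity was 46.1, 10.7 and 402 in the adult pools (316 on the Cy5 array of adult colon 1) and 34.2 and 28.3 in the fetal pools, in units of 1000. Fgb was not above background on any adult array and was at least 10.1-fold higher in the fetal colon (adjusted p = 0.0018, held). Alb, albumin, was at 9.08 and 8.48 in the fetal pools and between 7.39 and 7.79 in the adult pools. The erythroid genes Alas2, the first enzyme of red cell heme synthesis, and Hbb-bt, a beta globin, differed by -2.59 and -2.66 (adjusted p = 0.00479 and 0.011), and were lost without fetal small intestine 3 (0.0625 and 0.121) and fetal colon 2 (0.0609 and 0.0923). No erythroid gene passed under median centring. Upk3b, a uroplakin also known from mesothelium, differed by -2.31 (adjusted p = 0.00214, held). The part of attached or other tissue in the results above was not tested.

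**Figure D5:**
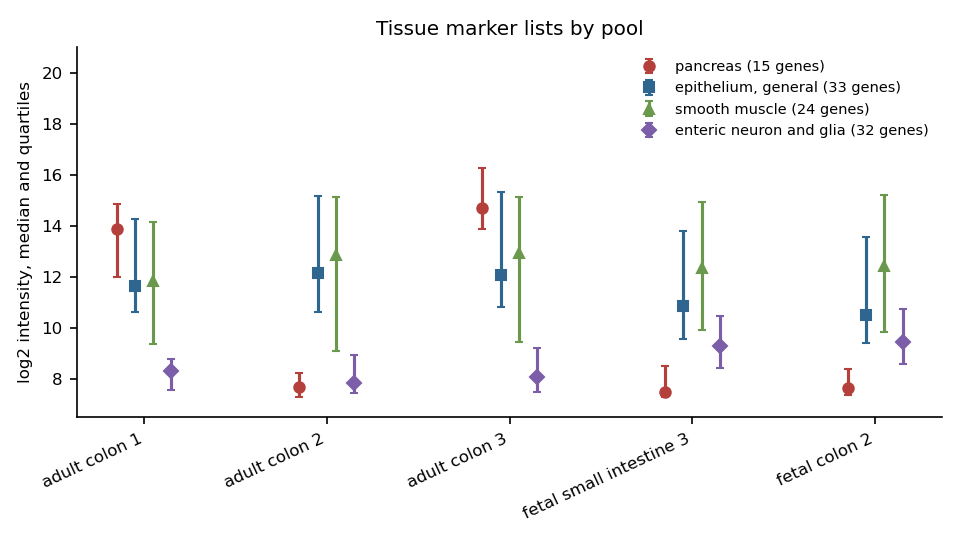
Median log2 intensity with quartiles over genes (y axis) of 4 tissue marker lists in each pool (x axis). The pancreatic list is at 13.9 and 14.7 in adult colon 1 and 3 and at 7.67 or below in the other 3 pools, while neuron and glia genes lie higher in the 2 fetal pools.

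The knockout pools on the same arrays gave the same stage comparison in littermates without Spdef. Spdef intensity averaged 11.97 in adult and 11.19 in fetal wild type colon and 8.32 and 8.12 in the knockout channel; whether its probe lies in the deleted part is not given in the sources used here. Of 16531 genes tested there, 1729 were higher in the adult (10.5%) and 2022 lower (12.2%). Of the genes called in wild type, 1491 of 1492 and 1583 of 1584 had the same sign in the knockout channel. The channels share arrays, slides and the dim array, so this is no separate replicate. Slc26a3 differed by 6.20 in the knockout channel and by 6.53 in wild type, Igf2 by -6.81 and -6.80, and Pigr by 6.61 and 6.57. Among goblet genes, Muc2 differed by 4.23 and 3.16, Retnlb by 7.87 and 6.39, and Zg16 by 0.90 and 2.27. The difference between genotypes in these stage effects was not tested.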

How the data were processed

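Two-colour Agilent arrays of mouse intestine were used, 20 in all, with 500 ng of RNA labelled per channel, per the labels' protocols. The deposited scanner files hold spot intensity written by Agilent Feature Extraction 9.5.3, per the submitters' processing notes; spot flags come from the same files. Gene names follow RefSeq through accession (23477 of 41174 probes), symbol (6678) or older symbol (2891), and 8128 kept the file's name.

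From the deposited intensity of each channel, background was subtracted by normexp with offset 50, arrays were normalised by loess within arrays and Aquantile between arrays (R 4.3.3, limma 3.58.1), and each pool's log2 channel values were the mean of its dye swap arrays. The offset sets a floor near log2 7 and compresses folds of dim genes. A gene was kept where a probe passed the scanner's background flag on every array of 1 stage or both, at the brightest probe (24241 probes, 16670 genes). Stages were compared with lmFit and eBayes on 5 pools, with Benjamini-Hochberg adjustment and a threshold of 0.05. A bound for a gene not above background sets each dim array at the higher of its lowest signal well above background and the probe's own signal. The test was also run on simulated pools with independent noise of the same spread in each pool, without a dim array. That run does not check the calls in these data. The number of pools, 3 adult and 2 fetal, limits the precision.

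Named genes are the markers Retnlb, Car4, Igf2 and H19, the 12 largest rises and falls among genes measured on all arrays without overlap, the 6 largest bounds each way, and per list up to 4 members with the smallest adjusted p (2 for other-tissue lists) and up to 3 that did not pass. Not every gene of this rule is printed, and some are not reported here. Members of a small count outside it, and a few genes set beside a result (Ifit3, Oas1a, Spdef, Epcam, Cdh1, Cpa1, Alb), were chosen after their values were seen. Members and lists were chosen with earlier results of these data known. Alternatives covered background, scaling, filter, probes, fit, dye and leaving out pools. The series' table of processed values was not used.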

Additional observations from a re-analysis of the deposited data

How the results depend on the processing

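Counts of wild type genes higher and lower in the adult, 1492 and 1584 as reported, became 3257 and 3841 with the scanner's processed signals, 2503 and 2916 in a joint fit of all wild type pools, 2518 and 2941 with slide as a random block in that fit, 3190 and 4105 on Cy5 arrays alone and 204 and 103 on Cy3 arrays alone. Median centring gave 319 lower genes, and fetal pools as labelled gave 390 and 140. Without the dim Cy3 array of adult colon 1, an alternative chosen after seeing the data, they were 3544 and 4435. Leaving out 1 pool gave 169 to 2896 higher and 115 to 3521 lower genes, and in the knockout channel 210 to 2996 and 193 to 3980. The cause was not tested. The other alternatives, such as no background subtraction or no filter, stayed within 1.5 times.

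Replicate numbers 2 and 3 recur in both stages and were not taken as pairs. Deviations of same-numbered pools from their stage mean correlated at -0.385 and 0.119. With 2 fetal pools, each deviation is the mirror of the other, so these values cannot decide whether the numbers mark pairs. With the replicate block 1948 and 2245 genes passed. Of 220 named genes, 122 passed, and none of those reversed its direction under any alternative run. Those genes were named for large differences or small adjusted p in these same data, so this was largely fixed in advance. Of all 3076 called genes, 20 reversed under median centring. With the fetal pools as labelled, 26 of the 3043 tested there reversed. With 2 fetal pools, small differences cannot be resolved, and signals near the floor carry no order.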
